A study of Sus scrofa with 16 samples.

Results

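The genes described are GHR, the receptor for growth hormone, IGF2, an insulin-like growth factor, and IGFBP5 and IGFBP6, a pair of secreted proteins that bind insulin-like growth factors. They were measured by the probe sets (groups of short array probes that report 1 transcript) whose single gene symbol in the platform annotation was 1 of these 4 symbols (4 of the 6765 genes so annotated), which gave 17 of the 24123 probe sets on the array. IGF2 had 13 probe sets, IGFBP6 had 2, and GHR and IGFBP5 had 1 each. Expression had been measured in the diaphragm, the main muscle of breathing, and in the psoas major, a muscle beside the lumbar spine, of 8 Iberian pigs slaughtered at 211 days of age. Of the 4 males and 4 females, 2 of each sex had been kept at a high feeding level and 2 under 20% restriction, all on 1 pelleted diet before the restriction, and each animal gave 1 Affymetrix array per muscle, 16 in all. Animals 1 and 4 were males at the high level, animals 2 and 3 restricted males, animals 6 and 7 females at the high level, and animals 5 and 8 restricted females. The labels do not say if males were castrated or at what age feed was restricted.

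Growth hormone from the pituitary acts on muscle and liver through GHR, which signals by way of the kinase JAK2 and the transcription factors STAT5A and STAT5B, and which drives the making of insulin-like growth factor 1. Insulin-like growth factor 2, the product of the imprinted gene IGF2, promotes the growth and differentiation of myogenic cells. Binding proteins hold both growth factors in the fluid around cells and can block or support their action, and of the pair studied here IGFBP6 prefers insulin-like growth factor 2 while IGFBP5 is the binding protein that myogenic cells make as they differentiate.

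The values were log2 expression values, in which a difference of 1 is a 2-fold difference. Array medians lay between 3.56 and 3.62. Probe sets at or above 4 in at least 4 arrays were tested, 11467 in all, and 12 of the 17 members were among them. The 5 that were not tested belonged to IGF2 and lay below 4 on every array. A gene was represented by its tested probe set of highest mean. The skeletal muscle markers were high on every array, with mean levels over 7 marker genes of 14.07 to 14.23 in diaphragm and 14.45 to 14.61 in psoas. Their median difference, psoas minus diaphragm, was 0.01. The largest was that of MYH2, at 15.26 in psoas against 12.52 in diaphragm. TNNT3 was higher in psoas by 0.33, MYH7 and TNNT1 differed by -0.16 and -0.26, and CKM, DES and TTN by 0.03 or less. A control for RNA quality, the log2 difference between probe sets at the 3' and 5' ends of actin, was 4.07 to 4.33 in the diaphragm of animals 1, 2, 3 and 5 and 3.35 to 3.49 in the diaphragm of animals 4, 6, 7 and 8. For a second control, GAPDH, the difference was -0.045 to 0.078 in the former diaphragms and -0.234 to -0.069 in the latter. The number of arrays limits the precision of every value.

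Between the muscles, GHR was higher in psoas, and IGF2, IGFBP5 and IGFBP6 were higher in diaphragm. The difference was 1.35-fold for GHR, 1.41-fold for IGF2, 2.59-fold for IGFBP5 and 1.64-fold for IGFBP6. Of all tested probe sets, 27.0% passed an adjusted p of 0.05 between the muscles, 14.6% with a higher value in psoas and 12.4% with a higher value in diaphragm. Of the 12 tested probe sets of these genes, 9 passed. The genes had been picked with this comparison known, so that their share is not a finding. Because the samples were whole muscle, fewer cells of a type and less RNA per cell cannot be told apart.

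**Figure D1:**
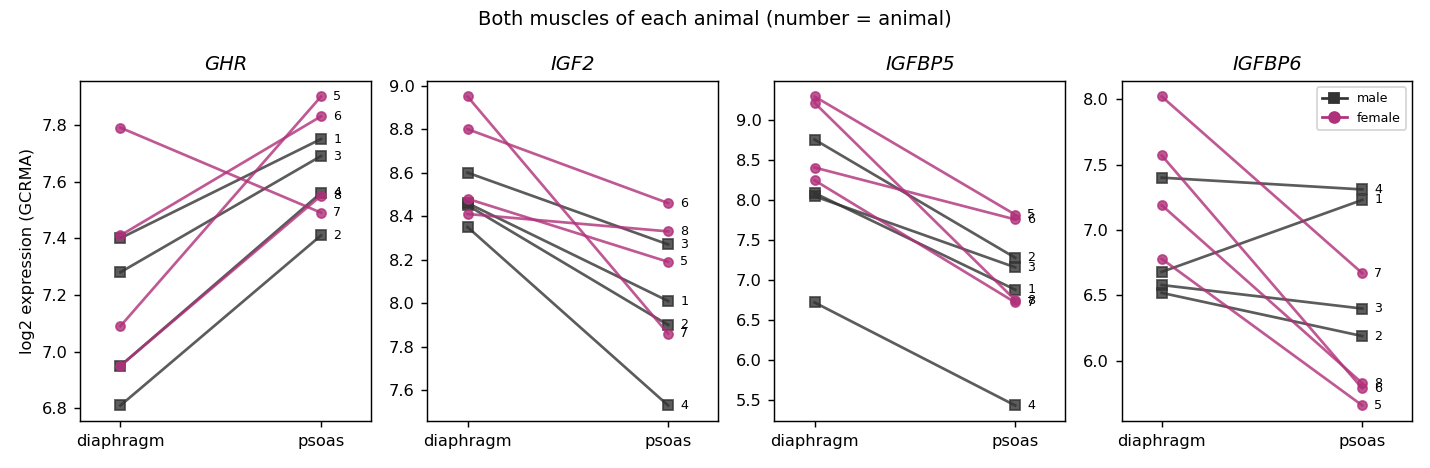
Log2 expression of the 4 genes in the diaphragm and psoas of each animal, with 1 line per animal, the animal's number at the psoas end, and squares for males and circles for females. The lines of IGF2 and IGFBP5 run down to psoas in 8 of 8 animals, those of GHR run up in 7 of 8, and those of IGFBP6 run down steeply in the 4 females.

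GHR, the receptor of the axis, had log2 values in diaphragm of 6.81 at the lowest, 7.19 at the median and 7.79 at the highest. In psoas these were 7.41, 7.63 and 7.90. The ranges overlapped, and the lowest diaphragm values came from animals 2, 4 and 8. The psoas value exceeded the diaphragm value of the same animal in 7 of 8 animals, by 0.36 to 0.81, and 42.4% of all tested probe sets had 1 sign in at least 7 of 8. Animal 7, a female at the high feeding level, was the exception, with a difference of -0.30 and the highest diaphragm value. The mean difference, psoas minus diaphragm, was 0.44 ± 0.12 (SE, 95% interval 0.19 to 0.69, limma adjusted p = 0.0140), and flipping the signs of the 8 differences gave an exact two-sided p of 0.0156. The main limma fits of psoas against diaphragm, with their SE and intervals, did not pair an animal's muscles, while the sign flips did. The difference was 0.60 ± 0.16 (SD, n = 4) in restricted animals and 0.27 ± 0.40 (SD, n = 4) at the high level. The test of the difference between these feeding levels did not pass (0.33, 95% interval -0.15 to 0.81, limma adjusted p = 0.847), and without animal 7 the value was 0.123.

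IGF2, the growth factor, was measured at 8.35 at the lowest, 8.47 at the median and 8.95 at the highest in diaphragm with its brightest probe set, Ssc.20525.1.S1_at. In psoas the values were 7.53, 8.10 and 8.46. Psoas lay below diaphragm in 8 of 8 animals, although the 2 ranges overlapped slightly, and the size of the step ran from -0.08 in animal 8 to -1.09 in animal 7. The SD was 0.21 in diaphragm and 0.30 in psoas (n = 8 each). The mean difference was -0.49 ± 0.12 (SE, 95% interval -0.75 to -0.24, limma adjusted p = 0.00745). The exact two-sided sign-flip p was 0.00781, the smallest that 8 pairs can give. A sign shared by 8 of 8 animals was found for 21.4% of all tested probe sets, with the higher value in diaphragm for 9.71%, and muscles that did not overlap for 3.72%.

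The other IGF2 probe sets may share sequence with one another and are not replicates. A name ending in _a_at marks probes that can match several transcripts of 1 gene, and one ending in _x_at marks probes that can also match other transcripts. Of the 8 tested, 5 passed, all with the higher value in diaphragm. After Ssc.20525.1.S1_at, these were Ssc.9365.2.S1_a_at with a difference of -0.63 (limma adjusted p = 0.0120), Ssc.9365.3.S1_a_at with -0.55 (0.0082), Ssc.9365.5.S1_a_at with -0.45 (0.0315) and Ssc.9365.6.S1_x_at with -0.42 (0.0416). The call of Ssc.9365.5.S1_a_at was lost with no filter and without animal 5, 7 or 8 (highest adjusted p 0.0923 among left-out animals). That of Ssc.9365.6.S1_x_at was lost with no filter, with the arrays rescaled, with the animal as a fixed block (adjusted p = 0.0512) and without any of animals 3 to 8 (highest 0.122). The remaining tested probe sets did not pass. Ssc.9365.3.S1_x_at differed by -0.20 (adjusted p = 0.110), Ssc.9365.6.A1_x_at, with a mean of 4.10 near the floor, by 0.13 (0.334), and Ssc.9365.6.A1_a_at, with a mean of 4.75, by less than 0.01 with a sign that turned when the arrays were rescaled. Among the 6 probe sets with a mean above 5, correlations between probe sets across the 8 animals of a muscle had a median of 0.783 in diaphragm and 0.776 in psoas over 15 pairs. Pairs that held 1 of the 2 dim probe sets had medians of -0.0845 and 0.324.

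**Figure D2:**
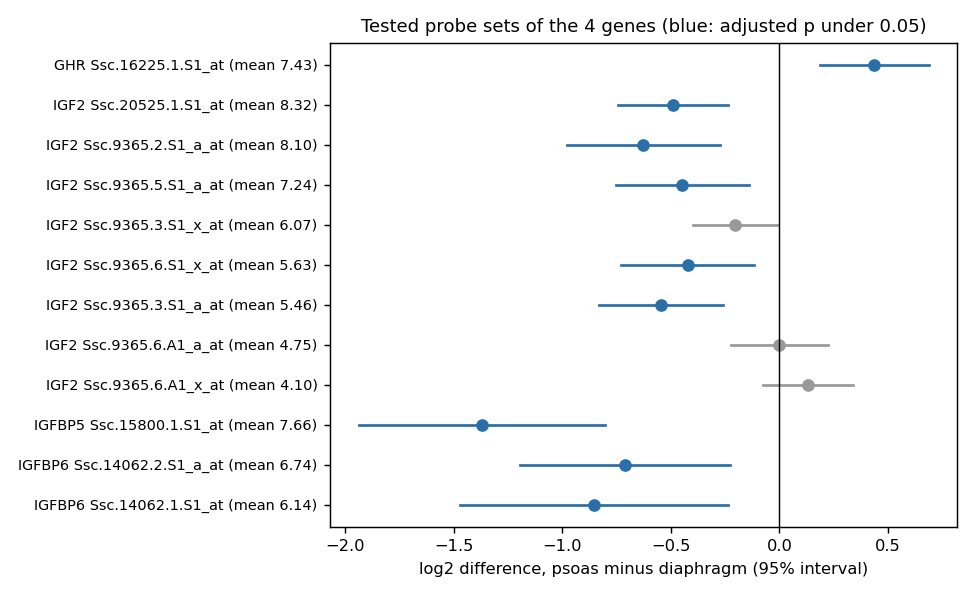
Log2 difference, psoas minus diaphragm, of the 12 tested probe sets of GHR, IGF2, IGFBP5 and IGFBP6, with points for the fitted difference, lines for its 95% interval and the mean over 16 arrays beside each name. Blue marks the 9 probe sets with an adjusted p under 0.05, of which the GHR probe set lies to the right of 0 and the others to the left.

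Of the 4 genes, IGFBP5 had the widest step between the muscles. Its diaphragm values were 6.72 at the lowest, 8.33 at the median and 9.30 at the highest, against 5.43, 7.02 and 7.82 in psoas. The ranges overlapped, but psoas lay below diaphragm in 8 of 8 animals. Animal 4, a male at the high feeding level, had the lowest value in both muscles. Animal 5, a restricted female, had the highest in both. The smallest step was -0.65 in animal 6 and the largest -2.47 in animal 8. The mean difference was -1.37 ± 0.27 (SE, 95% interval -1.94 to -0.80, limma adjusted p = 0.00197), with an exact two-sided sign-flip p of 0.00781.

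IGFBP6, measured with Ssc.14062.2.S1_a_at, had diaphragm values of 6.52 at the lowest, 6.99 at the median and 8.02 at the highest, and psoas values of 5.66, 6.30 and 7.31. The muscles overlapped over much of their range. The mean difference of -0.71 ± 0.23 (SE, 95% interval -1.19 to -0.23) passed in limma (adjusted p = 0.0317), and diaphragm was higher in 7 of 8 animals. The exact two-sided sign-flip p was 0.0625. The second IGFBP6 probe set, Ssc.14062.1.S1_at, gave -0.86 ± 0.29 (SE, limma adjusted p = 0.0402, exact two-sided sign-flip p = 0.0391) and followed the first closely, with a correlation of 0.982 across diaphragm arrays and 0.933 across psoas arrays. The call for the brighter probe set was lost with no filter on low values (adjusted p = 0.0848), with no covariates (0.0698), and without animal 2 (0.0524), 5 (0.0826), 6 (0.0710), 7 (0.0758) or 8 (0.0837). That of the second was lost with no filter (0.107), with no covariates (0.0712) and without any of animals 2, 3, 5, 6, 7 and 8 (highest 0.101).

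**Figure D3:**
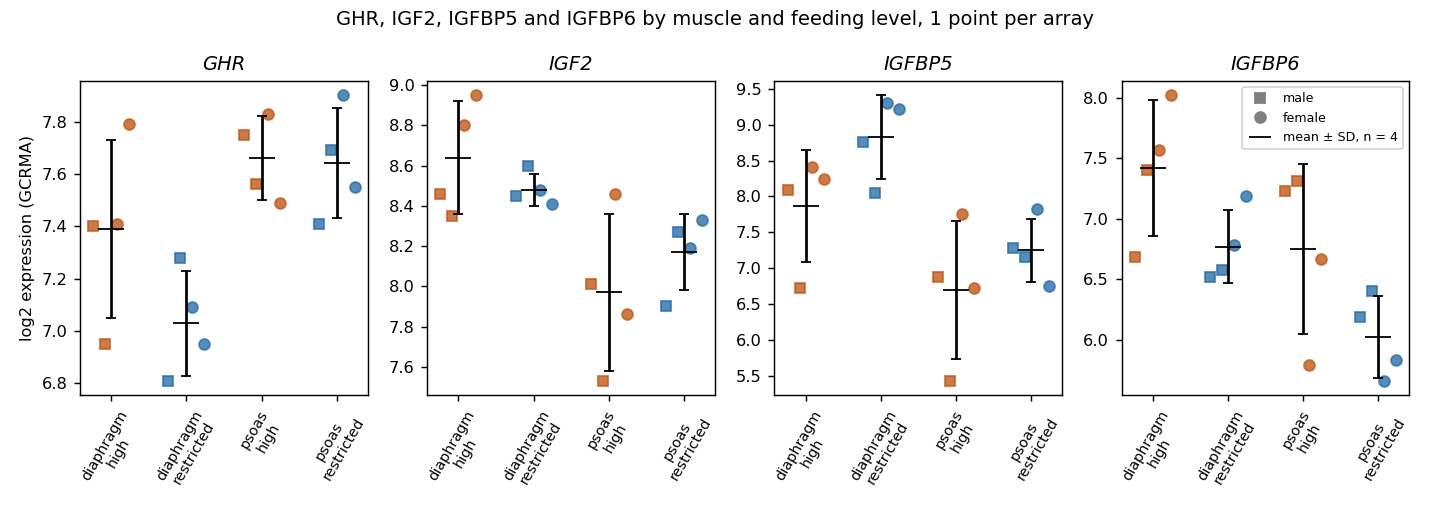
Log2 expression of the 4 genes on each array by muscle and feeding level, with squares for males, circles for females and black bars for the mean and SD of 4 arrays. IGFBP5 lies lower in both psoas groups than in the matching diaphragm groups, and IGFBP6 spreads widely in psoas at the high feeding level (5.79 to 7.31).

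The size of the IGFBP6 step between the muscles did not overlap between the sexes. In the 4 females psoas lay below diaphragm by -1.13, -1.79, -1.36 and -1.36 in animals 5 to 8. In males the differences were 0.54, -0.33, -0.18 and -0.09 in animals 1 to 4. The means were -1.41 ± 0.28 in females and -0.01 ± 0.38 in males (SD, n = 4 each). Female diaphragms averaged 7.39 and female psoas 5.98, while male muscles averaged 6.80 and 6.78. This comparison was made after the values had been seen. Its difference of -1.40 ± 0.23 (SE, 95% interval -1.91 to -0.88) did not pass over all probe sets (limma adjusted p = 0.336), and 0.00% of the 11467 probe sets passed there, with 1161 at an unadjusted p under 0.05. The exact two-sided p of 0.0286 was the smallest that 4 against 4 animals can give, and groups that did not overlap were found for 5.54% of all tested probe sets. For the other genes the female minus male difference in the step was -0.11 (GHR), 0.09 (IGF2) and -0.32 (IGFBP5), each with a 95% interval that spans 0, and over left-out animals that of IGFBP5 ranged from -0.589 to -0.0247.

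In diaphragm the IGFBP6 level also moved with the actin control. The 4 diaphragms with a 3' minus 5' difference of 4.07 to 4.33 had IGFBP6 values of 6.52 to 6.78. Those with a difference of 3.35 to 3.49 had 7.19 to 8.02, with no overlap, as was found between these sets for 11.4% of all tested probe sets. The first set holds 3 males and 1 female, and 3 restricted animals and 1 at the high level. The ranges of the other genes overlapped between the sets, at 6.81 to 7.40 against 6.95 to 7.79 for GHR, 8.45 to 8.60 against 8.35 to 8.95 for IGF2 and 8.05 to 9.30 against 6.72 to 9.22 for IGFBP5. With the actin difference as a covariate, the muscle difference of IGFBP6 was -0.94 and that of IGFBP5 -1.21, and the 4 genes passed as before (highest adjusted p 0.0416, for GHR). With animals 4, 6, 7 and 8 alone, none of the 4 genes passed. The differences were then 0.33 for GHR (adjusted p = 0.288), -0.58 for IGF2 (0.126), -1.48 for IGFBP5 (0.0504) and -1.15 for IGFBP6 (0.0930), with 405 of 11467 probe sets called. These animals are 3 females and 1 male, and the IGFBP6 step averaged -1.41 in all females and -0.01 in all males. The part of sex in the subset's IGFBP6 value was not tested.

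**Figure D4:**
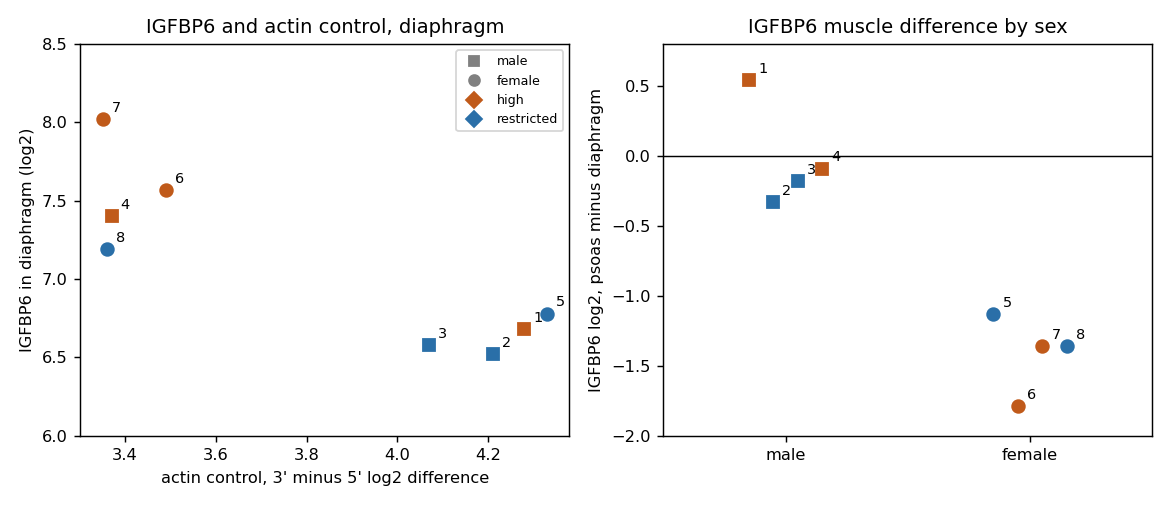
Left, IGFBP6 log2 expression in the 8 diaphragms against the 3' minus 5' log2 difference of the actin control. Right, each animal's psoas minus diaphragm log2 difference in IGFBP6 by sex, with squares for males, circles for females, orange for the high feeding level, blue for restriction and animal numbers beside the points. The 4 diaphragms with the smaller actin difference have IGFBP6 values of 7.19 to 8.02, and the female differences lie between -1.79 and -1.13.

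Feeding level, the second question of the design, gave no call for these genes in either muscle. In diaphragm 0.00% of the 11467 probe sets passed (1101 at an unadjusted p under 0.05), and in psoas 0.00% (1291). Among the 4 genes, the differences nearest to passing were in the binding proteins, IGFBP6 with lower and IGFBP5 with higher means under restriction.

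IGFBP6 in diaphragm was 6.68, 7.40, 7.57 and 8.02 in animals 1, 4, 6 and 7 at the high level, and 6.52, 6.58, 6.78 and 7.19 in the restricted animals 2, 3, 5 and 8. In psoas the values were 7.23, 7.31, 5.79 and 6.67 at the high level against 6.19, 6.40, 5.66 and 5.83 under restriction. The feeding groups overlapped in each muscle, as did those of the other 3 genes; groups without overlap were found for 4.88% of all tested probe sets in diaphragm and 4.98% in psoas. The difference, restricted minus high, was -0.65 ± 0.20 in diaphragm (SE, 95% interval -1.11 to -0.19, limma adjusted p = 0.477) and -0.73 ± 0.21 in psoas (SE, 95% interval -1.20 to -0.25, limma adjusted p = 0.321). Exact two-sided p-values, from relabelling animals without regard to sex, were 0.0857 and 0.143. As the mean of both muscles, IGFBP6 was 6.95, 7.35, 6.68 and 7.34 in animals 1, 4, 6 and 7, and 6.36, 6.49, 6.22 and 6.51 in the restricted animals 2, 3, 5 and 8. These groups did not overlap, as for 5.97% of all tested probe sets, and differed by -0.69 ± 0.17 (SE, 95% interval -1.07 to -0.30, limma adjusted p = 0.279, exact two-sided p = 0.0286). In this comparison too 0.00% of probe sets passed in limma (1451 at an unadjusted p under 0.05). The diaphragms of restricted animals also had the higher mean actin difference (3.99 against 3.62), and with that difference as a covariate the feeding difference of IGFBP6 in diaphragm was -0.41 (adjusted p = 0.626). In psoas the mean actin difference was 3.36 in restricted animals against 3.53 at the high level. There the feeding difference of IGFBP6 ranged from -0.726 to -0.673 over 7 other settings, the actin covariate among them. The part of RNA quality in these differences was not tested.

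IGFBP5 in diaphragm was 8.09, 6.72, 8.41 and 8.25 in animals 1, 4, 6 and 7 at the high level, and 8.76, 8.05, 9.30 and 9.22 in the restricted animals 2, 3, 5 and 8. In psoas the values were 6.88, 5.43, 7.76 and 6.72 against 7.28, 7.16, 7.82 and 6.75. The groups overlapped, with animal 4 the lowest in both muscles. The difference was 0.97 ± 0.29 in diaphragm (SE, 95% interval 0.29 to 1.64, limma adjusted p = 0.477, exact p = 0.114) and 0.55 ± 0.42 in psoas (SE, 95% interval -0.42 to 1.53, limma adjusted p = 0.646, exact p = 0.371). The psoas difference was 0.162 without animal 4, 0.862 without animal 6 and 0.870 without animal 8. As the mean of both muscles the difference was 0.76 ± 0.32 (SE, limma adjusted p = 0.385), and 0.425 without animal 4. With the actin covariate the diaphragm difference was 0.67 (adjusted p = 0.634).

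GHR in diaphragm was 7.40, 6.95, 7.41 and 7.79 in animals 1, 4, 6 and 7 at the high level, and 6.81, 7.28, 7.09 and 6.95 under restriction in animals 2, 3, 5 and 8. In psoas it was 7.75, 7.56, 7.83 and 7.49 against 7.41, 7.69, 7.90 and 7.55. The groups overlapped in both muscles. The difference was -0.35 ± 0.18 in diaphragm (SE, 95% interval -0.77 to 0.06, limma adjusted p = 0.567), and -0.232 without animal 7. In psoas the means were 7.66 ± 0.16 and 7.64 ± 0.21 (SD, n = 4 each), with a 95% interval of the difference of -0.35 to 0.30, and the sign of the difference turned when the arrays were rescaled.

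IGF2 in diaphragm was 8.64 ± 0.28 at the high level and 8.48 ± 0.08 under restriction, and in psoas 7.97 ± 0.39 and 8.17 ± 0.19 (SD, n = 4 each). The SD was larger at the high level in both muscles, where animal 7 had the highest diaphragm value (8.95) and animal 4 the lowest psoas value (7.53). The difference was -0.16 (95% interval -0.47 to 0.16, limma adjusted p = 0.719) in diaphragm and 0.21 (95% interval -0.21 to 0.63, limma adjusted p = 0.695) in psoas. It ranged over left-out animals from -0.243 to -0.0726 in diaphragm and from 0.0889 to 0.349 in psoas, nearest to 0 without animal 7 and without animal 4. Of the other tested IGF2 probe sets, only Ssc.9365.6.S1_x_at had a feeding interval that excluded 0, in diaphragm. Its difference there was -0.31 (95% interval -0.60 to -0.01, limma adjusted p = 0.507). No difference in the step between the muscles by feeding level passed for these genes (lowest adjusted p over the 12 probe sets 0.807, for Ssc.9365.6.A1_x_at of IGF2, and 0.841 for its brightest probe set), in a comparison where 0.00% of probe sets passed and 696 had an unadjusted p under 0.05. Groups without overlap in this step were found for 2.99% of all tested probe sets, and for 1 of the 12 tested probe sets here, Ssc.9365.6.A1_x_at of IGF2.

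**Figure D5:**
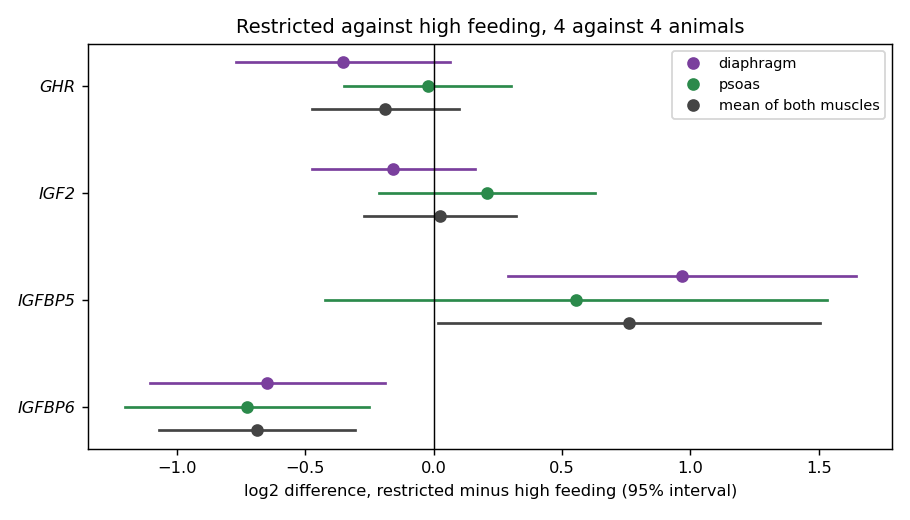
Log2 difference, restricted minus high feeding, of the 4 genes in diaphragm, in psoas and as the mean of both muscles, with points for the fitted difference and lines for its 95% interval (4 against 4 animals, sex as covariate). The 3 intervals of IGFBP6 lie below 0 and those of IGFBP5 in diaphragm and in the mean of both muscles lie above it, but no difference passed after adjustment over the 11467 probe sets.

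Between the sexes, as the mean of both muscles, none of the 4 genes passed, against 0.183% of all tested probe sets. IGFBP5 came nearest, with a female minus male difference of 0.74 ± 0.32 (SE, 95% interval -0.01 to 1.48, limma adjusted p = 0.551), which was 0.400 without animal 4. The differences of IGF2 (0.24), GHR (0.14) and IGFBP6 (-0.10) had 95% intervals that span 0, and without animal 4 those of IGF2 and GHR were 0.139 and 0.0665.

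The other genes of the axis were taken from a list of 66 genes, of which 33 had a probe set with a single symbol and 15 were tested. Between the muscles 4 of the 15 were higher in psoas and 1 was higher in diaphragm, and their median difference was 0.11, against 0.02 over all tested probe sets. With 1 probe set per gene, 29.5% of all 4571 tested genes passed. Directly below the receptor, the kinase JAK2 was lower in psoas, at 5.29 against 6.22, with a difference of -0.92 ± 0.13 (SE, limma adjusted p = 2.3e-04). The transcription factor STAT5A, which JAK2 activates, was higher in psoas at 5.64 against 5.15 (0.48 ± 0.11 SE, limma adjusted p = 0.00601), as was the JAK2-binding adaptor SH2B1 (0.33 ± 0.11 SE, 0.0347). STAT5B differed by 0.30 and did not pass (adjusted p = 0.0588). The receptor and its kinase thus had differences of opposite sign between the muscles. HTRA1, a secreted protease that cleaves IGF binding proteins, was higher in psoas at 8.88 against 8.30 (0.58 ± 0.16 SE, limma adjusted p = 0.0180), as was RHEB, the small GTPase that activates mTOR (0.42 ± 0.11 SE, 0.0110). The call of SH2B1 was lost with no filter, with the actin covariate and without animal 3, 4, 5, 7 or 8 (highest adjusted p 0.102 among left-out animals), and that of HTRA1 without animal 3 (0.0666). With animals 4, 6, 7 and 8 alone, HTRA1 and JAK2 passed and the other 3 did not.

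By feeding level none of the 15 passed in either muscle. Their median difference was -0.07 in diaphragm, against -0.01 over all tested probe sets, and -0.01 in psoas against -0.02. The lowest adjusted p of the 15 was that of AKT1 in both muscles. Its difference, restricted minus high, was -0.63 in diaphragm (limma adjusted p = 0.472) and -0.43 in psoas (0.344). IGFBP2, the other binding protein tested, lay near the floor at 4.04 in diaphragm and 3.92 in psoas and did not pass between the muscles (-0.12, adjusted p = 0.451). Of the other ligands and receptors, GH1, INS, IGF1, IGF1R, IGF2R and INSR were below 4 on every array with a highest value of 3.92, for IGF1R, so that they gave no comparison. The growth hormone signalling inhibitors SOCS1 and SOCS3 were also below 4 throughout.

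Some lists of markers of other cells held genes that differed between the muscles. With 1 probe set per gene, 12.2% of all 4571 tested genes were called higher in diaphragm and 17.3% higher in psoas. Of 7 tested markers of endothelium, 6 were higher in diaphragm, with a median difference of -0.70 and mean levels of 7.33 to 7.84 in diaphragm and 6.66 to 7.20 in psoas, while KDR and TIE1 were below 4 on every array. Of 6 fibroblast markers, 4 were higher in diaphragm, with a median of -0.50 and levels of 7.47 to 8.45 against 6.66 to 7.81 and FBLN1 below 4. Of 3 adipocyte markers, 2 were higher in diaphragm, with a median of -1.27 (levels of 7.08 to 9.29 against 6.76 to 7.21, LEP below 4). All 7 tested hepatocyte markers were higher in diaphragm, with a median difference of -2.49. Their levels were 3.64 to 7.93 in diaphragm and 3.13 to 3.78 in psoas, with SERPINA1 and TTR below 4. With such psoas levels they could pass the filter on low values through the diaphragm arrays alone, so that their count is not a finding. Of 3 immune markers, 1 was higher in diaphragm (levels of 5.64 to 6.81 against 5.34 to 6.11, with CD14, CD3E and PTPRC below 4), and no mesothelial marker passed the filter on low values. Of 5 smooth muscle and pericyte markers, 1 was higher in each muscle, with differences of 2.08 for CNN1 and -0.71 for RGS5. Of 2 markers of nerve and Schwann cells 1 was higher in diaphragm, and none of the 3 satellite cell and 2 erythrocyte markers passed. The part of these cells in the differences of GHR, IGF2, IGFBP5 and IGFBP6 was not tested. By feeding level, the hepatocyte markers had a median difference of -1.24 in diaphragm, with none passing, and their part in the feeding differences was not tested either.

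Across animals, 16 relations among the 4 genes were computed, 6 pairs within each muscle and each gene between its muscles, and none passed after adjustment. The strongest was GHR with IGF2 in diaphragm, with Pearson's r = 0.863 (exact permutation p = 0.00432, adjusted p = 0.0690) and Spearman's rho = 0.833 (exact permutation p = 0.0154, adjusted p = 0.174, n = 8 animals). Without animals 2 and 7 the r was 0.753. In psoas IGFBP5 and IGFBP6 ran in opposite directions, with r = -0.769 (exact permutation p = 0.0165, adjusted p = 0.110) and rho = -0.810 (exact permutation p = 0.0218, adjusted p = 0.174, n = 8), and r = -0.489 without animals 4 and 5. Between an animal's muscles, r was 0.215 for GHR, 0.245 for IGF2 and 0.0734 for IGFBP6 (exact permutation p = 0.612, 0.548 and 0.865), and rho was 0.357, 0.262 and 0.0476 (exact permutation p = 0.389, 0.536 and 0.935). For IGFBP5 the r of 0.765 (exact permutation p = 0.0344, adjusted p = 0.110, rho = 0.595 with exact permutation p = 0.132 and adjusted p = 0.391) rested on animals 4 and 5, without which it was -0.125.

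The genes most like each of the 4 over the 16 arrays were chosen by Pearson's r among singly annotated tested probe sets, and the arrays share animals and muscles. GHR was followed most closely by RPS6 (r = 0.825) and RPL10A (0.820), which encode ribosomal proteins, and by LOC100154873 (0.815). IGF2 was followed by ARL6IP1 (0.897), FAM107A (0.882) and CDH5 (0.871), the cadherin of endothelial cells. IGFBP5 was followed by AASDHPPT (0.916), VDAC3 (0.876), a channel of the outer mitochondrial membrane, and NFIB (0.852), a transcription factor. IGFBP6 was followed by the mitochondrial chaperone HSPA9 (0.877), the syndecan SDC2 (0.868) and OAF (0.859). Once muscle, feeding level and sex had been subtracted, RPS6 stayed first for GHR (0.857, followed by CTNNB1 at 0.843 and CANX at 0.841) and AASDHPPT for IGFBP5 (0.924, followed by DTNBP1 at 0.859 and PLA2G12A at 0.826). CDH5 came second for IGF2 (0.809), between GNG11 (0.822) and SF1 (0.807). For IGFBP6 the 3 genes were others, TMED10 (0.900), NMT1 (0.897) and WTAP (0.897).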

How the data were processed

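Total RNA of 16 muscle samples was hybridised to Affymetrix porcine arrays. The authors deposited log2 values, made with GCRMA per the submitters' processing notes. GCRMA corrects background by probe sequence, equalises arrays and summarises probes, which removes any shift common to an array as a whole and compresses low values. The sources used here give neither its version nor the set of arrays it was run on. Gene names came from the platform annotation (10099 probe sets with 1 symbol, 198 with several, 13826 with none).

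Probe sets at a log2 value of 4 or more in at least 4 arrays were tested (11467, without 124 control probe sets), with limma 3.58.1 (lmFit, eBayes; R 4.3.3) and Benjamini-Hochberg adjustment over all of them, and were called at an adjusted p under 0.05. Muscles were compared on 16 arrays with feeding level and sex as covariates, feeding levels on the 8 arrays of a muscle with sex as covariate, and animal means and animals' muscle differences likewise on 8 animals. Exact sign-flip and relabelling tests were computed in Python 3.11.15 without covariates, so that those of feeding level took no account of sex. Since the genes were chosen, these tests were not adjusted. Exact permutation p-values of the correlations were adjusted over their 16 relations, and ranks for Spearman's rho came from SciPy 1.17.1. The fit was tested on simulated data. The genes, gene lists, markers and tests were chosen with earlier results of these data known. The genes named were the 4 members with every probe set, called genes of the axis list, and the 3 genes most like each member; the other axis genes and markers with values were named after their values were seen. The muscle difference by sex, the actin covariate and the comparison of animals 4, 6, 7 and 8 alone were added after seeing the data.

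Animal numbers in the labels pair the muscles. After the fitted effects were removed, the arrays of 1 animal correlated at 0.0724 to 0.257. The animal as a block, other filters and scalings, other moderation settings and leaving out each animal were alternatives.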

Additional observations from a re-analysis of the deposited data

Results flagged for a closer look

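Between the sexes, the IGFBP6 step between the muscles was apart by -1.40 for Ssc.14062.2.S1_a_at and by -1.54 for Ssc.14062.1.S1_at (female minus male, limma adjusted p = 0.336 for both), and the females' values lay below those of the males. With the actin covariate the first difference was -1.20. The IGF2 probe set Ssc.9365.6.A1_x_at, near the floor, had a step between the muscles that differed by 0.37 between the feeding levels (restricted minus high, limma adjusted p = 0.807), with groups that did not overlap, as for 2.99% of all tested probe sets. In all, 24 such differences were examined.

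Among 48 groups of 4 arrays, 2 held an array far from the others, where chance gives about 1 in 20. The IGF2 probe set Ssc.9365.3.S1_x_at was 5.65 in the psoas of animal 4, against 6.06 to 6.07 in the other animals at the high feeding level. Many values of this probe set were nearly tied, with 6.06 to 6.09 in the restricted diaphragms. A gap was measured against the range of its 4 arrays, so that near ties make it stand out. Ssc.9365.6.A1_x_at was 4.38 in the diaphragm of animal 4, against 4.02 to 4.05.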

How the results depend on the processing

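The muscle calls of GHR, IGF2 and IGFBP5 held under each alternative but one. With animals 4, 6, 7 and 8 alone 0 of the 4 genes passed, at 0.333 (GHR), -0.582 (IGF2), -1.48 (IGFBP5) and -1.15 (IGFBP6), with fewer samples by construction. Most of these animals were females. IGFBP6 stayed at -0.71 but did not pass with no filter (more probe sets tested) or with no covariates, and ranged from -0.889 to -0.556 over left-out animals; the cause was not tested. With the animal as a fixed or random replicate block the muscle difference kept its size and the 4 genes passed; of IGFBP6 the adjusted p was 0.0432 and 0.0199. The block raised the calls over all probe sets from 3094 to 3836 and 3897.

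Signs turned only in differences or correlations that had not passed. With median centring and quantile normalization, IGF2 Ssc.9365.6.A1_a_at between the muscles was 0.0035 and 0.0238, and GHR by feeding in psoas 0.0124 and 0.0105. Over left-out animals the first ranged from -0.0618 to 0.0561 and the second from -0.111 to 0.0507, IGF2 by feeding over animal means from -0.0727 to 0.109, and IGFBP6 by sex from -0.225 to 0.0402 and, for its second probe set, -0.206 to 0.132. The feeding effect on the step between the muscles ranged from -0.245 to 0.13 for IGFBP6 and from -0.325 to 0.173 for its second probe set. The sex effect on the step ranged from -0.217 to 0.0929 for GHR and from -0.027 to 0.273 for IGF2. Without the 2 animals farthest from the median, r was -0.125 for IGFBP5 between muscles and, in diaphragm, 0.0165 for GHR with IGFBP5, -0.22 for GHR with IGFBP6, -0.759 for IGF2 with IGFBP6 and 0.0371 for IGFBP5 with IGFBP6. Their causes were not tested. The tested IGF2 probe sets with means under 5 were Ssc.9365.6.A1_x_at (4.10) and Ssc.9365.6.A1_a_at (4.75). The part of low signal in their differences was not tested.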
